A study of Mus musculus with 4 samples.

Results

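Complement was read from 9 genes, taken by name from the 32285 genes of the count tables: C1qa, C1qb and C1qc, C3, C4b, Cfb, Serping1, and the receptors C5ar1 and C3ar1. They encode the 3 chains of the recognition protein C1q, the central component C3, component C4, factor B, the C1 inhibitor, and the receptors of the C5a and C3a fragments. The cells came from fracture callus of C57BL/6J wild-type mice that were 3 months old. RA mice had been injected with K/BxN serum, which transfers arthritis, and control mice with vehicle. Callus was taken at 4 or 7 days post fracture (dpf), which gave 4 scRNA-seq libraries called control_4d, control_7d, RA_4d and RA_7d. Each was 1 library from a pool of 4 calluses by the sample labels, so animals cannot be told apart within a library. There were no replicates, no test between conditions was made, and a difference between libraries cannot be told apart from a difference between conditions. The intervals below are exact 95% intervals that cover counting error only.

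Complement is a cascade of plasma proteins that marks microbes, dying cells and immune complexes for removal. The classical pathway starts when C1q binds its target and C1r activates C1s, which cleaves C4 and C2. The alternative pathway builds its own C3-cleaving enzyme from C3 fragments and factor B, and the C1 inhibitor restrains C1r and C1s. Cleavage releases C3a and C5a, the anaphylatoxins, which act through C3ar1 and C5ar1 on myeloid cells. Liver supplies most plasma complement, while C1q is made mainly by macrophages and stromal cells can make C3, C4 and factor B in inflamed tissue.

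In the GRCm38 annotation the 3 C1q genes lie side by side on the minus strand of chromosome 4, C1qb at chr4:136880129-136886187, C1qc at chr4:136889804-136893065 and C1qa at chr4:136895917-136898803. Chromosome 17 carries C4b at chr17:34728380-34743882 and Cfb at chr17:34856374-34862518, both in the major histocompatibility complex, and C3 at chr17:57203970-57228136. Serping1 is at chr2:84765387-84775444, C3ar1 at chr6:122847138-122856161 and C5ar1 at chr7:16246743-16259540, also on the minus strand. Promoters are shown because the C1q chains, and likewise both receptors, moved together across cell classes, as described below. C3, C4b, Cfb and Serping1 moved together less closely, at Pearson correlations of 0.44 to 0.69. The windows run 5′ to 3′ on the minus strand from 250 bases before to 50 bases after the RefSeq start (GRCm38.p6). The table matched 5 of the 9 genes, and C1qa, C4b, Cfb and Serping1 are named only. Capitals mark matches to GAGGAA, a word bound by the macrophage factor Spi1 (PU.1), or to TTGNGNAA, a C/EBP word, each searched on both strands.
C1qb, chr4:136886151-136886450: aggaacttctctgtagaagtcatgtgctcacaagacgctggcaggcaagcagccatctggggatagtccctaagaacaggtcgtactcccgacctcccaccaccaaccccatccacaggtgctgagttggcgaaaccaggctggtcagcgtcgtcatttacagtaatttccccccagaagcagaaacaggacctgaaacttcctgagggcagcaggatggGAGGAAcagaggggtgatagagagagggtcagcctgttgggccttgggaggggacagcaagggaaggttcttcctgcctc
C1qc, chr4:136892865-136893164: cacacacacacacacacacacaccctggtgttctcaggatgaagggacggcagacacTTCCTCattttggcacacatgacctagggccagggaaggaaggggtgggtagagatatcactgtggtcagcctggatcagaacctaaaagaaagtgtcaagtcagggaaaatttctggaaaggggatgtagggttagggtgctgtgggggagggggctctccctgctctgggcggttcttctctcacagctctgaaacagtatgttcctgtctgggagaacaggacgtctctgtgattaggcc
C3, chr17:57228087-57228386: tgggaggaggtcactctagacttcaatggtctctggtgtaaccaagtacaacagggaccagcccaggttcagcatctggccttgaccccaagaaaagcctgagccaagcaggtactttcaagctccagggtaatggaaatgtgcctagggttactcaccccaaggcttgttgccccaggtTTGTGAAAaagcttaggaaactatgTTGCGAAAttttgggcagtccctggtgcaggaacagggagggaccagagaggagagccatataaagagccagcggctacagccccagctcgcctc
C5ar1, chr7:16259289-16259588: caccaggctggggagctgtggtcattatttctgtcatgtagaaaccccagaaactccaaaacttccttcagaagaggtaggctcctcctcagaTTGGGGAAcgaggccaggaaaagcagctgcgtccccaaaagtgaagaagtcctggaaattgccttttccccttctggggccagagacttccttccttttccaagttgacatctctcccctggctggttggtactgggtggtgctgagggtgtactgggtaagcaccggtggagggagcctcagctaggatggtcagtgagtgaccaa
C3ar1, chr6:122856108-122856407: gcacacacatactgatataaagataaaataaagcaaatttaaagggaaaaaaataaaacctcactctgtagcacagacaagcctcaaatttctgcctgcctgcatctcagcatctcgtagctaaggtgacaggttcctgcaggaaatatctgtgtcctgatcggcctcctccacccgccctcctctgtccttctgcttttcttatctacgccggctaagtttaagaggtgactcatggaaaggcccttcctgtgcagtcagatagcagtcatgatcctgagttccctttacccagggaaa
The C1qb window held 1 Spi1 word, which began 30 bases before the start, and the C1qc window held 1 on the opposite strand, which began 193 bases before it. C3 held 2 C/EBP words, which began 70 and 45 bases before the start, and C5ar1 held 1, which began 157 bases before it. These distances are from the RefSeq start. For C1qc and C5ar1 that start lies well inside the gene span given above, so the annotations differ. The C5ar1 word falls within its gene span. No capital stands in C3ar1. Of all 32851 promoters of the same length, 28.3% held the Spi1 word and 13.3% the C/EBP word, so both are common. None of the 5 windows held GGGA and TTCC parted by any 2 bases (NF-kB, in 1.47% of promoters), GTGGGAA (RBPJ, 6.38%), TTC and GAA parted by any 3 bases (GAS, 8.30%) or TTTC and TTTC parted by any 2 bases (ISRE, 3.44%). No matched word overlapped another.

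After the limits of the study's methods, 25479 of 34038 barcodes were kept, 4110 to 8223 a library, with 83405494 to 156567619 unique molecular identifiers (UMIs) a library and a median of 16093.5 to 17631.5 UMIs a cell. Between 5 and 15 kept barcodes were shared by any pair of libraries. Cells fell into 30 clusters, and classes were named from marker genes with all complement genes left out of the clustering genes. Every class name below means cells like that type by its markers, since names were rebuilt here. Markers fitted the lineages: Csf1r reached 551 CPM in macrophages against 8 CPM in mesenchymal cells, Prrx1 580 CPM in mesenchymal cells against 4 CPM in macrophages, and Cdh5 1057 CPM in blood endothelial cells against 2 CPM in macrophages. CPM is a gene's summed UMIs in a class and library, scaled to 1000000 UMIs of all genes. Macrophages were 45.9%, 27.8%, 37.6% and 15.8% of the kept cells in control_4d, control_7d, RA_4d and RA_7d, and mesenchymal cells 17.7%, 40.6%, 19.2% and 48.3%. Levels over whole libraries move with these shares, so members are compared within classes.

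The genes fell into 2 patterns by cell type. C1q chains and both receptors were read mainly in macrophages, whereas C3, C4b, Cfb and Serping1 were read mainly in mesenchymal cells, with callus fibroblasts highest by the mean over libraries (for C4b, fibroblast precursors were higher in RA_7d and the ranges overlapped). Macrophages held 86.1% to 92.2% of the C1qa UMIs of a library, 79.9% to 86.0% of those of C5ar1 and 84.8% to 91.2% of those of C3ar1. Mesenchymal cells held 82.1% to 94.1% of the C3 UMIs, 66.3% to 91.9% of those of C4b, 72.2% to 90.3% of those of Cfb and 88.8% to 92.4% of those of Serping1. C5ar1 was also read in monocytes and neutrophils, C3 in neutrophils and C4b in resident-like macrophages.

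**Figure D1:**
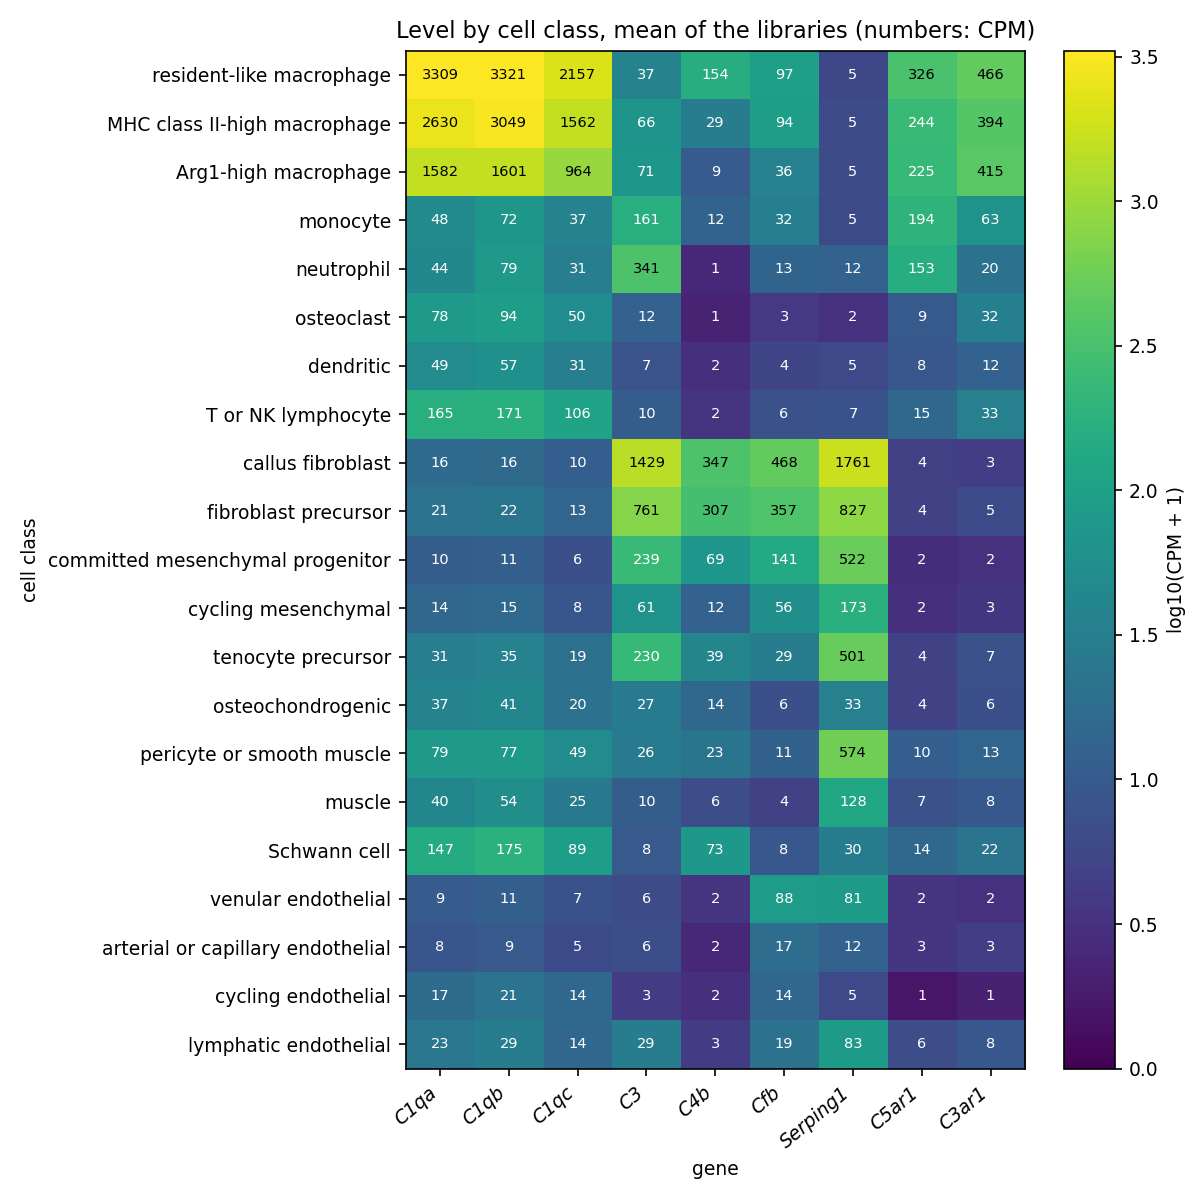
Heat map of the 9 genes (horizontal axis) by cell class (vertical axis). Colour is log10(CPM + 1) and the printed numbers are CPM, as the mean of the libraries that held at least 20 cells of the class. C1q chains and receptors stand out in the macrophage classes, and C3, C4b, Cfb and Serping1 in the fibroblast classes.

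C1q is the pattern recognition part of the classical pathway, and all 3 of its chains are needed for the protein. In resident-like macrophages, which carry Mrc1 and Folr2, C1qa was at 3340 CPM (control_4d), 3380 CPM (control_7d), 2923 CPM (RA_4d) and 3593 CPM (RA_7d). MHC class II-high macrophages were at 2702, 2988, 1827 and 3002 CPM in the same order. Arg1-high macrophages were at 1454, 1812, 1245 and 1819 CPM, below the other classes of macrophages in every library. Ranges over the libraries overlapped between resident-like and MHC class II-high cells, and did not overlap between MHC class II-high and Arg1-high cells.

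C1qb and C1qc were also highest in resident-like macrophages by the mean over libraries. C1qb was at 3324, 3432, 2814 and 3713 CPM in resident-like macrophages, at 3242, 3430.3, 2133 and 3390.2 CPM in MHC class II-high macrophages and at 1453, 1906, 1145 and 1901 CPM in Arg1-high macrophages, in the order control_4d, control_7d, RA_4d and RA_7d that holds for all lists below. C1qc was at 2143, 2223, 1972 and 2289 CPM in resident-like cells, at 1575, 1778, 1073 and 1819.7 CPM in MHC class II-high cells and at 850, 1153, 736 and 1115 CPM in Arg1-high cells. Ranges of C1qb overlapped as those of C1qa did, whereas those of C1qc did not overlap between resident-like and MHC class II-high cells and overlapped between MHC class II-high and Arg1-high cells. RA_4d was the lowest library for each chain in each of these macrophage classes. Over 81 pairs of class and library, the levels of any 2 chains had a Pearson correlation of 0.98 to 0.99 on the log2(CPM + 1) scale, a description across cell types that share libraries.

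At 4 dpf the C1q chains were lower in RA macrophages, and furthest so in MHC class II-high cells. The ratio of RA to control in that class was 0.676 (0.660 to 0.692) for C1qa, 0.658 (0.644 to 0.672) for C1qb and 0.681 (0.660 to 0.703) for C1qc. Of the chains, C1qb alone passed the 1.5-fold limit there, which is set on CPM with a pseudocount of 1 CPM and which 4.06% of the 9703 genes compared in this class passed downward. Over the whole macrophage lineage the ratios were 0.824 (0.815 to 0.834) for C1qa, 0.783 (0.774 to 0.792) for C1qb and 0.850 (0.837 to 0.863) for C1qc. At 7 dpf they were 1.10, 1.09 and 1.08, close to 1. From 4 to 7 dpf, C1qb in RA macrophages was at a ratio of 1.59 (1.57 to 1.62), against 1.14 (1.13 to 1.16) in control macrophages.

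**Figure D2:**
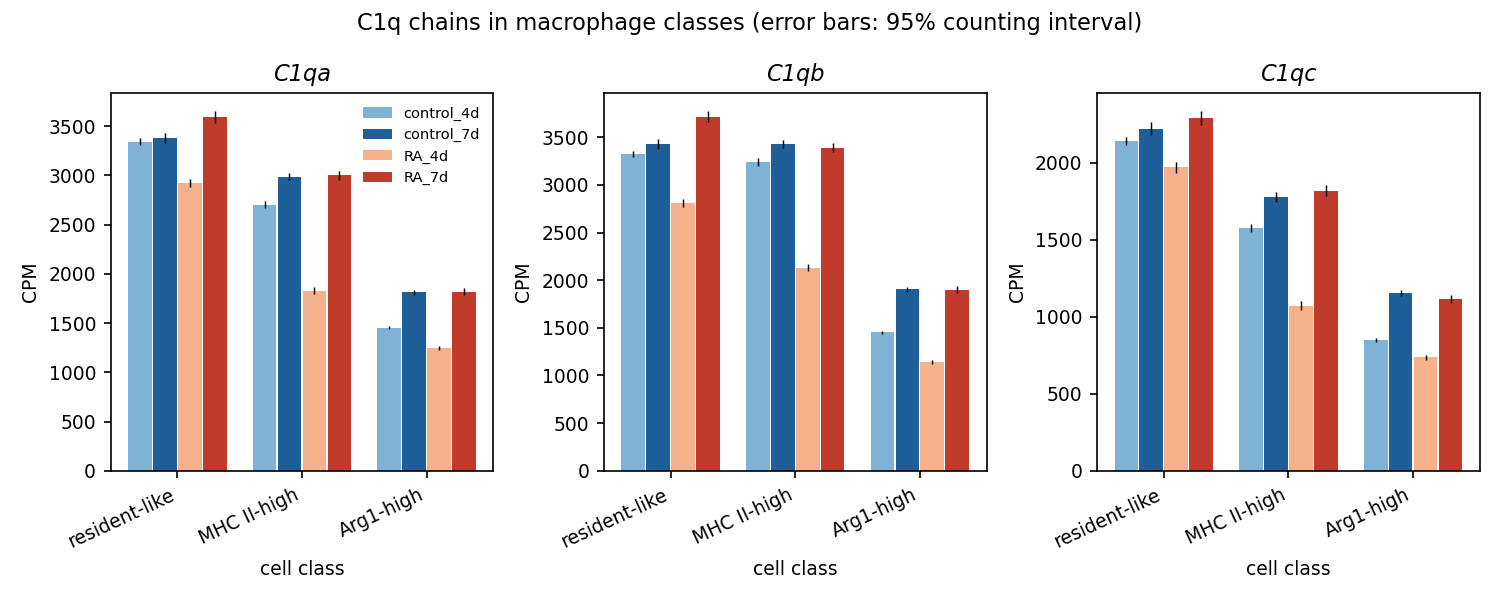
Bars give CPM (vertical axis) of the C1q chains by macrophage class (horizontal axis) and library (colour), with lines for the 95% Poisson interval. RA_4d has the lowest bar in every class shown, and within each library Arg1-high cells lie below the other classes.

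Free RNA can give UMIs in droplets of cells that do not express a gene, so shares of cells are read against a cell type that should lack it. With each cell thinned to 4000 UMIs, 81.4% of macrophages had a C1qa UMI (84.9% without thinning, at a median of 12450 UMIs). In blood endothelial cells, which should lack the gene, the share was 2.81% (2.25% to 3.48%) at a median of 15752 UMIs. In monocytes it was 5.92% (3.87% to 8.62%). T or NK lymphocytes had 343, 169.6, 60.7 and 85.6 CPM of C1qa, and the summed macrophage markers in them were 298, 140, 103 and 104 CPM. The chains stood in nearly the same proportions in these lineages. C1qa, C1qb and C1qc made up 37.5%, 39.4% and 23.2% of C1q UMIs in macrophages and 37.2%, 39.4% and 23.4% in mesenchymal cells. Other classes departed from this, with 28.2%, 53.2% and 18.6% of 517 UMIs in neutrophils, 30.4%, 46.3% and 23.3% of 743 UMIs in monocytes and 33.1%, 45.5% and 21.3% of 2029 UMIs in muscle cells. C1qa was at 11.1, 25.8, 11.4 and 19.1 CPM in mesenchymal cells and at 9.44, 10.9, 6.67 and 7.72 CPM in blood endothelial cells. The part of free RNA and of doublets in C1q UMIs outside macrophages was not tested, which holds for each count of genes below that takes in C1q in other lineages.

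C1q over all kept cells moved with the share of macrophages. C1qa over all kept cells was at 865, 492.5, 547.7 and 315.2 CPM. RA_7d was the lowest library, although its macrophages were the highest in C1qa. Fewer macrophages and fewer transcripts in each would look alike in such a sum.

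C3 is the component on which the pathways meet. Its highest mean level was in callus fibroblasts, at 1840 CPM (control_4d), 502.3 CPM (control_7d), 1634 CPM (RA_4d) and 1741 CPM (RA_7d). Fibroblast precursors were at 621, 216, 1113 and 1093 CPM, and committed mesenchymal progenitors at 173.9, 62.0, 327 and 391.8 CPM. Control_7d was the lowest library in each of these classes, and the other libraries lay well above it. Cycling mesenchymal cells were at 31.8, 15.5, 44.1 and 152.5 CPM and tenocyte precursors at 315, 102, 356 and 147.5 CPM.

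The difference between RA and control callus in C3 was seen at 7 dpf. Over the mesenchymal lineage C3 was at 719.4, 167.0, 734.1 and 863.0 CPM, so that the RA to control ratio came to 1.02 (1.00 to 1.04) at 4 dpf and 5.17 (5.07 to 5.26) at 7 dpf. At 7 dpf the ratio was 3.47 (3.39 to 3.55) in callus fibroblasts, 5.06 (4.84 to 5.29) in fibroblast precursors and 6.32 (5.98 to 6.68) in committed mesenchymal progenitors. It was 6.54 (4.81 to 9.005) in osteochondrogenic cells and 9.83 (8.45 to 11.5) in cycling mesenchymal cells. Tenocyte precursors were nearest to 1 among the mesenchymal classes, at 1.44 (1.33 to 1.57). At 4 dpf fibroblast precursors (1.79, 1.70 to 1.88) and committed progenitors (1.88, 1.76 to 2.02) were also past 1.5-fold, while callus fibroblasts were at 0.888 (0.866 to 0.910). The time comparisons use the same libraries: the ratio of 7 to 4 dpf was 0.232 (0.227 to 0.237) in control and 1.18 (1.16 to 1.20) in RA mesenchymal cells. By class it was 0.273 to 0.488 in control, so the lineage value lay below every class compared, and the mix of classes differed (osteochondrogenic cells were 1 in control_4d and 266 in control_7d). In RA it ran from 0.414 in tenocyte precursors to 3.46 in cycling mesenchymal cells.

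The share of mesenchymal cells with a C3 UMI moved the same way. After thinning it was 49.2%, 19.4%, 50.6% and 51.8%, against 3.66% in T or NK lymphocytes, which should lack C3 (median UMIs 25522 and 7491). Without thinning it was 68.3%, 34.5%, 68.3% and 70.8%. In callus fibroblasts the thinned share for C3 was 82.2%, 39.2%, 87.6% and 74.2%. Control_7d was lowest by the share of mesenchymal cells with a C3 UMI as well as by level.

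Cells outside the fibroblast classes also carried C3. Neutrophils, kept as a single cluster led by Ngp and Camp, were at 321, 322, 384 and 338 CPM from 27, 55, 149 and 32 cells. After thinning, 75.3% of them had a C3 UMI. Their summed mesenchymal markers were 131, 1149, 78 and 399 CPM, and their part in the C3 of neutrophils was not tested. The endothelial marker Cdh5 was at 128 CPM in neutrophils. Monocytes were at 121, 136, 178 and 209 CPM of C3. In macrophages C3 was at 50.6, 49.2, 60.1 and 78.7 CPM, with a 7 dpf ratio of 1.60 (1.48 to 1.73), beside summed mesenchymal markers of 191, 447, 117 and 519 CPM, and the part of these in the result was not tested. Pericytes or smooth muscle cells ranked low, at 6.25, 6.88, 7.03 and 84.6 CPM, with a 7 dpf ratio of 12.3 (8.23 to 19.2). Most pericytes of control_7d were in the cluster led by Rgs5 and most of RA_7d in the cluster led by Myh11, by small margins of 130 against 116 and 213 against 208 cells.

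**Figure D3:**
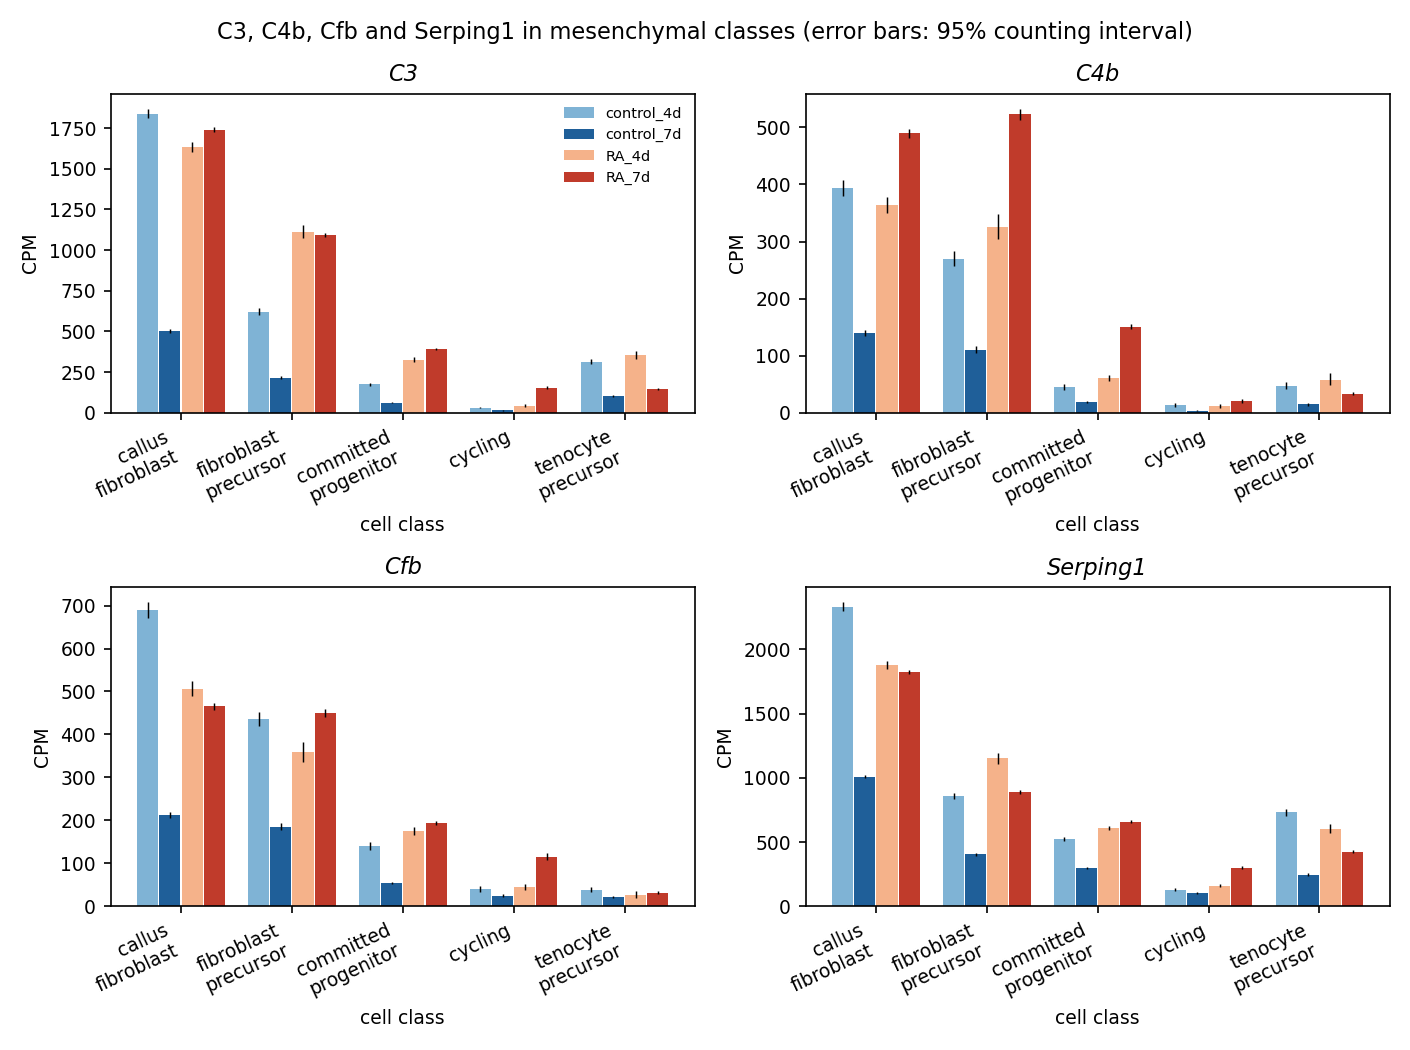
Bars give CPM (vertical axis) of C3, C4b, Cfb and Serping1 by mesenchymal class (horizontal axis) and library (colour), with lines for the 95% Poisson interval. The control_7d bar is the lowest of the 4 in callus fibroblasts and fibroblast precursors for each gene.

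C4b encodes C4, the substrate of C1s that carries the classical pathway to C3. Its near-identical neighbour C4a shares 20.2% of the 411 words of 90 bases in the last 500 bases of the transcript, so reads could be split or dropped between them and the level is uncertain. Callus fibroblasts were at 393, 139.6, 364 and 490 CPM and fibroblast precursors at 270, 110.5, 326 and 523 CPM. Control_7d was again lowest, and RA_7d was highest. Committed mesenchymal progenitors were at 44.7, 19.2, 60.4 and 151 CPM.

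In the mesenchymal lineage C4b was at 182.9, 51.8, 166.2 and 297.1 CPM. RA stood to control as 0.909 (0.872 to 0.947) at 4 dpf and 5.73 (5.55 to 5.93) at 7 dpf, the widest gap of the 9 genes over the summed lineage. By class the 7 dpf ratio was 2.24 to 7.85 for C4b, against 1.44 to 9.83 for C3. The 7 to 4 dpf ratio was 0.283 (0.272 to 0.295) in control and 1.79 (1.73 to 1.85) in RA cells. The thinned share of mesenchymal cells with a C4b UMI was 32.7%, 11.8%, 30.2% and 40.2% (unthinned 60.0%, 27.3%, 52.6% and 62.8%), against 1.27% in T or NK lymphocytes.

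C4b was also read in resident-like macrophages. Resident-like macrophages were at 192, 86.3, 144 and 192 CPM of C4b, while Arg1-high macrophages were at 6.98, 6.42, 9.66 and 13.8 CPM. Summed mesenchymal markers were 174, 487, 122 and 502 CPM in resident-like and 207, 442, 119 and 562 CPM in Arg1-high cells, and their part in C4b was not tested. Macrophages held 29.7%, 12.9%, 21.5% and 3.49% of all C4b UMIs. Within resident-like cells the 7 dpf RA to control ratio came to 2.23 (1.98 to 2.51), and control_7d was the lowest library here too. Schwann cells were at 53.7, 56.9, 110 and 73.1 CPM, from as few as 27 UMIs.

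Cfb encodes factor B, the catalytic part of the alternative pathway enzyme. Callus fibroblasts were at 689, 212, 506 and 465.5 CPM, fibroblast precursors at 435, 185, 358 and 450 CPM, and committed mesenchymal progenitors at 140, 53.6, 175 and 194 CPM. Control_7d was the lowest library in all 3 classes. The mesenchymal lineage was at 323.1, 90.9, 250.6 and 293.0 CPM, a ratio of RA to control of 0.776 (0.751 to 0.801) at 4 dpf and 3.22 (3.14 to 3.31) at 7 dpf. Between 4 and 7 dpf the ratio was 0.281 (0.273 to 0.290) in control and 1.17 (1.14 to 1.20) in RA mesenchymal cells, and the control value again lay below every class compared (0.308 to 0.610). The thinned share of mesenchymal cells with a Cfb UMI was 45.2%, 20.2%, 36.8% and 42.6% (unthinned 70.1%, 43.8%, 61.4% and 68.7%), against 1.69% in T or NK lymphocytes.

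Cfb was also read in venular endothelium and in macrophages. Venular endothelial cells, which carry Selp and Ackr1, were at 102, 90.02, 79.98 and 79.3 CPM, and 28.2% of them had a Cfb UMI after thinning (63.4% unthinned). Arterial or capillary endothelial cells were at 16.6, 12.2, 18.1 and 21.8 CPM. The ranges of these endothelial classes did not overlap, and their summed mesenchymal markers, whose part was not tested, were 184, 557, 93 and 561 CPM against 132, 492, 91 and 521 CPM. Among macrophages Cfb was at 125, 64.4, 97.9 and 101 CPM in resident-like and at 134, 68.6, 112 and 62.4 CPM in MHC class II-high cells. Arg1-high macrophages were lower, at 17.3, 24.7, 32.5 and 68.4 CPM, with RA above control at 4 dpf (1.87, 1.61 to 2.18) and at 7 dpf (2.77, 2.38 to 3.23).

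Serping1 encodes the C1 inhibitor, which also inhibits plasma kallikrein. Callus fibroblasts were at 2334, 1011, 1877 and 1823 CPM and fibroblast precursors at 858, 405, 1153 and 890 CPM. Committed mesenchymal progenitors were at 524.5, 296.5, 609 and 658 CPM and tenocyte precursors at 731, 245, 605 and 423 CPM, with control_7d again lowest. Pericytes or smooth muscle cells carried Serping1 at a steadier level, 656, 484, 580 and 576.5 CPM.

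The ratio of RA to control for Serping1 in the mesenchymal lineage was 0.889 (0.874 to 0.905) at 4 dpf and 2.40 (2.37 to 2.43) at 7 dpf, from 1061, 399.4, 943.5 and 959.2 CPM. In pericytes or smooth muscle cells it was 0.884 (0.810 to 0.964) and 1.19 (1.12 to 1.26), within 1.5-fold at both times. The 7 to 4 dpf ratio in the mesenchymal lineage was 0.376 (0.371 to 0.382) in control and 1.02 (1.00 to 1.03) in RA. The thinned share of mesenchymal cells with a Serping1 UMI was 78.2%, 55.9%, 71.3% and 78.2% (unthinned 92.0%, 82.4%, 89.4% and 93.0%), against 3.09% in T or NK lymphocytes. Venular endothelial cells were at 105.7, 57.3, 56.7 and 106 CPM, high in control_4d and RA_7d, and 27.0% of them had a Serping1 UMI after thinning (52.1% unthinned).

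C3, C4b, Cfb and Serping1 shared the 7 dpf difference. C4b was past 1.5-fold higher in RA in 6 of 6 mesenchymal classes and the others in 5 of 6, with 0 lower. In mesenchymal cells 4 of the 9 genes were past 1.5-fold higher in RA at 7 dpf and 0 lower, where 4.49% of 17225 genes were higher and 4.75% lower. These lineage values also take in the mix of classes. Callus fibroblasts were 788 and fibroblast precursors 374 of 3113 mesenchymal cells in control_7d, against 1331 and 783 of 3973 in RA_7d. By class the 7 dpf ratio was 1.44 to 9.83 for C3 and 2.24 to 7.85 for C4b. It was 1.49 to 4.69 for Cfb and 1.48 to 2.94 for Serping1. Callus fibroblasts had 4 of 9 higher and 4 lower (4.69% and 3.80% of 13867 genes). Osteochondrogenic cells had 3 of 9 and 3 (5.33% and 5.47% of 10494), and tenocyte precursors 2 and 1 (5.44% and 3.71% of 12065). Committed progenitors had 4 of 9 and 0 (4.99% and 4.87% of 13790). Fibroblast precursors had 4 of 9 and 0 (6.01% and 9.18% of 12503). The genes lower by class at 7 dpf were C1q chains or receptors. Over the lineage at 4 dpf 0 were higher and 0 lower, against 4.42% and 2.61% of 14201 genes. By class at 4 dpf, 4 of 7 were higher and 0 lower in committed progenitors (5.12% and 2.60% of 11148 genes), namely C3 and the 3 C1q chains. Tenocyte precursors had 3 of 7 and 0 (9.86% and 6.47% of 9180). Fibroblast precursors had 2 of 8 higher and 3 lower (7.83% and 7.49% of 9794), and callus fibroblasts 0 and 3 of 7 (3.88% and 3.74% of 11223). Cycling cells had 0 of 4 either way (9.26% and 4.41% of 9840). At 4 dpf C4b, Cfb and Serping1 passed the limit in 0 of 5 classes, C3 was higher in 2 of 5 and C3ar1 in 1 of 1. Each C1q chain was higher in 2 of 4 classes and lower in 2, so all of the lower calls were C1q chains. From 4 to 7 dpf C3, C4b, Cfb and Serping1 were lower in control mesenchymal cells and the 3 C1q chains higher (4.48% of 15976 genes lower, 5.85% higher). In RA cells C4b and the 3 C1q chains were higher and 0 lower (4.70% of 16330 genes higher, 4.46% lower). When called doublets were left out, 0 of the 9 genes were higher from 4 to 7 dpf in control, 4 were lower in RA at 7 dpf, and 1 was higher from 4 to 7 dpf in RA. All of the 7 dpf and control time comparisons share control_7d, the lowest library for each stromal component, so both turn on that 1 library.

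**Figure D4:**
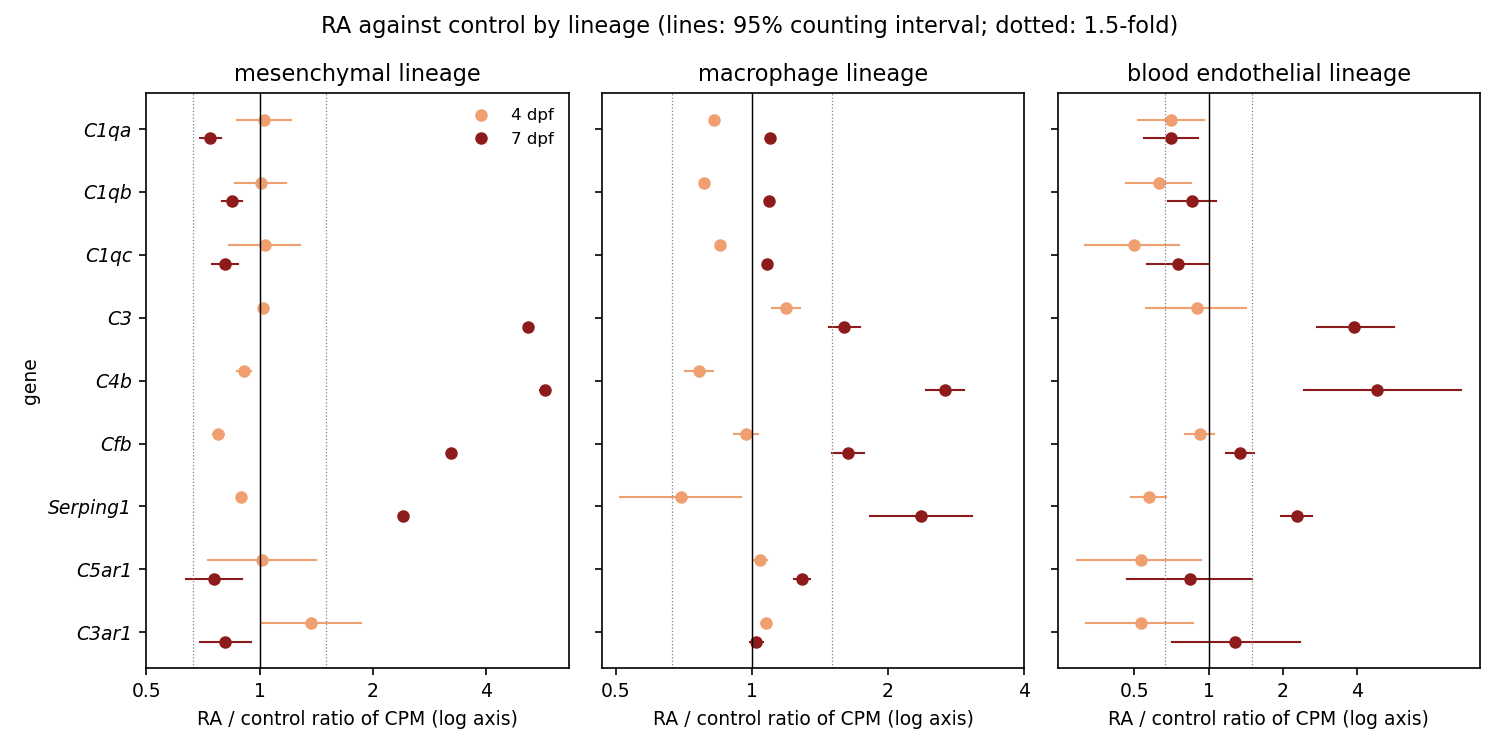
Points give the ratio of RA to control CPM (horizontal axis, log scale) for each gene (vertical axis) at 4 and 7 dpf (colours), by lineage (panels), with lines for the 95% counting interval and dotted lines at 1.5-fold. In mesenchymal cells the 4 dpf points of C3, C4b, Cfb and Serping1 lie within the dotted lines, and their 7 dpf points lie from 2.40 to 5.73.

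In macrophages 4 of the 9 genes were higher in RA at 7 dpf and 0 lower, against 3.50% and 1.59% of 12005 genes. They were C3 (1.60), C4b (2.67, 2.42 to 2.94), Cfb (1.63, 1.505 to 1.77) and Serping1 (2.36, 1.82 to 3.07), while C1q and the receptors stayed within 1.5-fold. These lineage values also take in the mix of classes, with resident-like cells 430 of 2131 macrophages in control_7d and 348 of 1301 in RA_7d. By class C4b was at 1.75 to 2.23, below its lineage value, C3 passed 1.5-fold in Arg1-high cells only (2.15, 1.92 to 2.40), and Cfb in MHC class II-high cells was at 0.909 (0.790 to 1.04). With a pseudocount of 10 CPM the count was 2. Serping1 was at 1.52 to 3.63 by class at 7 dpf. Resident-like cells held fewer than 50 UMIs of it over RA_4d and RA_7d, too few to compare. The mean level of Serping1 in every macrophage class lay below that of muscle cells, which were at 128 CPM. Its lineage ratio at 7 dpf had the widest interval of these 4 genes, so it is the least certain of them by counting. Summed mesenchymal markers in macrophages were 447 CPM in control_7d and 519 CPM in RA_7d, against 31247 and 40349 CPM in mesenchymal cells. Their part in the 4 higher genes was not tested. At 4 dpf 0 of 9 were higher and 0 lower in macrophages (1.37% and 2.75% of 12500 genes). Between 4 and 7 dpf 0 macrophage genes were higher and C4b (0.421) and Cfb (0.646) lower in control (2.72% and 1.61% of 12678 genes), while C1qb and Serping1 were higher and 0 lower in RA (7.40% and 3.27% of 11803 genes). In blood endothelial cells 0 of 8 genes compared were higher and 5 of 8 lower in RA at 4 dpf (2.04% and 2.23% of 12170 genes), namely C1qb, C1qc, Serping1, C5ar1 and C3ar1. With a pseudocount of 10 CPM the count was 1. Over the libraries C5ar1 was only at 1.37 to 4.31 CPM in venular and 2.05 to 3.89 CPM in arterial or capillary endothelial cells. C3ar1 was at 1.57 to 3.30 CPM and 1.83 to 6.40 CPM in the same order. The part of free RNA in these receptor values was not tested, here or in the endothelial counts below. Serping1 in blood endothelial cells was at 38.0, 21.1, 21.8 and 47.9 CPM, a 4 dpf ratio of 0.573 (0.486 to 0.674) and a 7 dpf ratio of 2.27 (1.97 to 2.63). At 7 dpf C3, C4b and Serping1 were higher and 0 lower in blood endothelial cells (4.07% and 4.30% of 12823 genes). Mesenchymal markers were at 491 and 520 CPM there, and their part was not tested. C3 was only at 1.69 to 12.0 CPM in venular and 2.86 to 13.1 CPM in arterial or capillary endothelial cells over the libraries. C4b was at 0.674 to 4.88 CPM and 0.381 to 3.24 CPM in the same order. From 4 to 7 dpf 0 endothelial genes were higher and 2 lower in control (3.74% and 1.81% of 12527 genes), and 5 higher and 0 lower in RA (4.43% and 2.70% of 12509 genes).

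C5ar1 is the receptor of C5a and draws neutrophils and macrophages to sites of complement cleavage. Resident-like macrophages were at 308, 288, 319 and 390 CPM, MHC class II-high macrophages at 241.5, 211.6, 219.7 and 302.5 CPM, and Arg1-high macrophages at 238, 203, 265 and 195.5 CPM. RA_7d was highest in the first pair of classes and lowest in Arg1-high cells. Monocytes were at 216, 196, 223 and 140 CPM and neutrophils at 183, 167, 170 and 93.1 CPM, lowest in RA_7d. All results for neutrophils here and below rest on the kept cluster led by Ngp and Camp. A further neutrophil cluster, led by Il1b and Csf3r, passed only a looser cell filter and is given near the end. Osteoclasts, which arise from the same precursors as macrophages, were at 17.3, 3.49 and 6.39 CPM in the first 3 libraries, and RA_7d held only 10 of them.

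The ratio of RA to control for C5ar1 in macrophages was 1.04 (1.01 to 1.08) at 4 dpf and 1.29 (1.24 to 1.34) at 7 dpf, within 1.5-fold. At 7 dpf it was 1.43 (1.33 to 1.53) in MHC class II-high, 1.35 (1.26 to 1.45) in resident-like and 0.963 (0.896 to 1.03) in Arg1-high cells. In neutrophils it was 0.556 (0.414 to 0.740), from 55 and 32 cells. The thinned share of cells with a C5ar1 UMI was 57.6% in macrophages (82.7% unthinned), 46.0% in neutrophils, 42.9% in monocytes and 0.916% in blood endothelial cells.

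C3ar1, the receptor of C3a, was more closely tied to macrophages. Resident-like macrophages were at 446, 472, 493 and 453 CPM, Arg1-high macrophages at 447, 395, 444 and 374 CPM and MHC class II-high macrophages at 357, 358, 450.5 and 409 CPM. These ranges overlapped, so no order among the macrophage classes can be given. Monocytes were at 82.1, 82.6, 31.8 and 55.9 CPM, below every macrophage class in every library. Neutrophils were at 53.8, 15.5, 7.51 and 2.78 CPM, which rests on 30, 17, 28 and 2 UMIs, and osteoclasts at 38.8, 26.5 and 30.8 CPM in the first 3 libraries.

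For C3ar1 in macrophages RA and control were nearly alike, at a ratio of 1.07 (1.05 to 1.10) at 4 dpf and 1.02 (0.991 to 1.06) at 7 dpf. Of the macrophage classes, MHC class II-high cells were furthest from 1, at 1.26 (1.20 to 1.33) at 4 dpf. The thinned share with a C3ar1 UMI was 74.2% in macrophages (92.3% unthinned), 17.5% in monocytes, 14.7% in osteoclasts, 3.80% in neutrophils and 0.746% in blood endothelial cells. The receptors parted in neutrophils. In neutrophils 43.3% had a UMI of C5ar1 only, 1.14% of C3ar1 only and 2.66% of both, and in monocytes 32.5%, 7.11% and 10.4%. In macrophages 44.9% had both, 12.7% C5ar1 only and 29.3% C3ar1 only, and the share with both was highest in resident-like cells, at 54.7%.

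**Figure D5:**
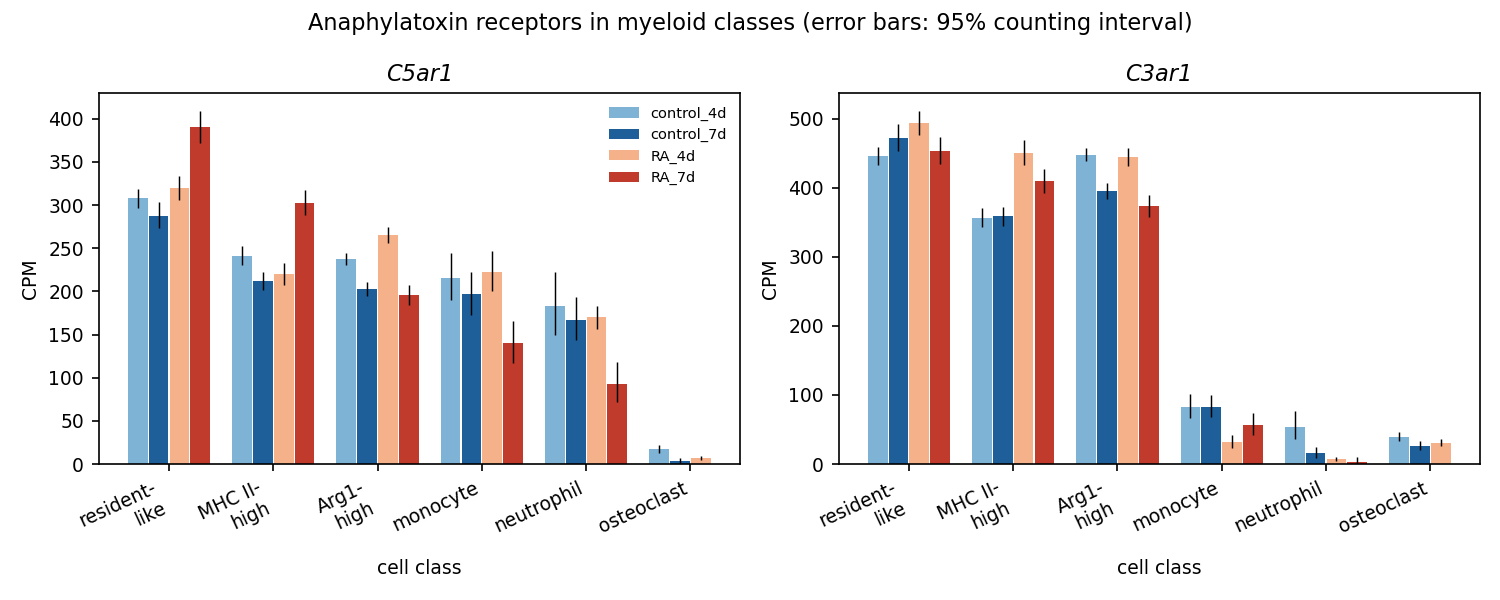
Bars give CPM (vertical axis) of C5ar1 and C3ar1 by myeloid class (horizontal axis) and library (colour), with lines for the 95% Poisson interval. C5ar1 is present in macrophages, monocytes and neutrophils, while C3ar1 is at 357 CPM or more in each macrophage class and at 82.6 CPM or less in monocytes and neutrophils.

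The other genes of the pathway were taken from a list of 39. In mesenchymal cells at 7 dpf, 10 of the 28 that could be compared were past 1.5-fold higher in RA and 1 was lower, against 4.49% and 4.75% of all genes compared. Among the classical and lectin pathway genes 5 of 9 were higher. C1ra and C1s1, genes of the proteases C1r and C1s, were at 239 and 97.9 CPM (ratio 2.44, 2.38 to 2.50) and at 421 and 179 CPM (2.35, 2.31 to 2.40) in RA_7d and control_7d, and C2 was at 64.1 and 23.7 CPM (2.71, 2.57 to 2.85). Of 6 membrane regulators Cd55, which speeds decay of the C3-cleaving enzymes, was at 123 and 43.1 CPM (2.86, 2.75 to 2.97). Cd55 was a leading gene of the fibroblast precursor cluster. Fibroblast precursors were 783 of 3973 mesenchymal cells in RA_7d and 374 of 3113 in control_7d, and the part of this mix was not tested. Cd59a, which blocks the membrane attack complex, was at 5.88 and 10.7 CPM (0.547, 0.491 to 0.608). Over the whole list, the 9 genes included, the median log2 ratio was 0.20, against -0.04 over all genes compared.

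At 4 dpf in mesenchymal cells 3 of 23 list genes were higher and 3 lower (4.42% and 2.61% over all genes compared). Cd55 was at 43.2 CPM in RA_4d and 124 CPM in control_4d, where fibroblast precursors were 84 of 791 and 193 of 969 mesenchymal cells. Hc, the gene of C5 from which C5a is cut, had 146 UMIs over all kept cells of the 4 libraries. RNA of this precursor was thus hardly read in the callus cells, and the amount of C5a itself was not measured. C7, a component of the membrane attack complex, was at 4.77, 0.556, 15.5 and 6.77 CPM in mesenchymal cells. Cfp, properdin, which stabilises the factor B enzyme, was read in macrophages at 275, 192, 330 and 260 CPM, and so was C5ar2, the second C5a receptor, at 27.6, 24.9, 35.1 and 34.9 CPM. In macrophages 6 of 17 list genes were higher in RA at 7 dpf and 0 lower (3.50% and 1.59% over all genes), and at 4 dpf 1 of 18 was higher and 4 lower (1.37% and 2.75%). Over the whole list, the 9 genes included, the median log2 ratio in macrophages was 0.41 at 7 dpf and -0.23 at 4 dpf, against 0.01 and 0.02 over all genes compared.

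The gene most like each member over the 81 pairs of class and library was sought among 14088 genes outside the complement list, as a description only. Ms4a7, a membrane protein of macrophages, was closest to C1qa, with a Pearson correlation of 0.97 on the log2(CPM + 1) scale. Adgre1 (F4/80) was closest to C3ar1 (0.96) and Clec4d, a myeloid lectin, to C5ar1 (0.96). Saa3, an acute phase gene, was closest to C3 (0.80), Adam33 to C4b (0.83), Man2a1 to Cfb (0.77) and Nbl1 to Serping1 (0.95). Among members, C5ar1 and C3ar1 were at 0.89, C3 and Cfb at 0.69, Cfb and C4b at 0.68, and C3 and C4b at 0.61. Serping1 was lower, at 0.56 with C4b, 0.46 with Cfb and 0.44 with C3.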

How the data were processed

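Single-cell RNA was read in 4 libraries of mouse fracture callus, 1 for each condition and time. The authors deposited UMI counts per gene and barcode, which they made with Cell Ranger 7.0.1 on mm10 from Chromium 3′ libraries; whether intronic reads were counted is not given in the sources used here. Libraries held 83405494 to 156567619 UMIs after filtering. The labels give a pool of 4 calluses a library, while the study's methods give another number of mice, so pool size is uncertain.

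Cells with 4000 to 50000 UMIs, 2000 to 7000 features and at most 8% mitochondrial UMIs were kept, as in the study's methods. They were integrated and clustered in Seurat 5.3.0 under R 4.3.3 (2000 variable genes without complement genes, 30 anchor dimensions, 15 principal components, resolution 1). Clusters were named from marker lists, with a marker score of at least 1 on the log2 scale, at least 3 detected markers and at most 40% called doublets. A cluster whose top list was the cell cycle was instead named cycling by its highest lineage list, at a score of at least 0.2. These limits were chosen after the clusters were seen. Clusters with 1076 cells stayed unnamed and the dendritic class was not compared between conditions. Doublets were called with Scrublet in scanpy 1.11.5 (634 cells, 2.49%) and left out only as an alternative. A class may hold other cells than the study's cluster of the same name.

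UMIs were summed per class and library and given as CPM for classes of at least 20 cells, with pandas 2.3.3, scipy 1.17.1 and numpy 2.4.6 in Python 3.11.15. Levels have exact Poisson intervals, shares exact Clopper-Pearson intervals and ratios exact conditional intervals. A gene was compared with at least 50 UMIs over both libraries and called past 1.5-fold with a pseudocount of 1 CPM. With 1 library a group no test was made. The calculation of ratios and calls was tested on simulated data. Figures used matplotlib 3.10.9, and TMM factors edgeR 4.0.16. The 9 genes, the gene lists and the markers were chosen with earlier results of these data known, and the promoter words and the alternatives for the comparisons over time were chosen after seeing the data. For each gene, the outside gene most like it over classes and libraries was named, of the 3 closest that were computed. Alternatives were other cell filters, clusterings and scalings, lower limits on UMIs, doublets left out, another pseudocount and another fold.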

Additional observations from a re-analysis of the deposited data

Results flagged for a closer look

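C5ar1 was read outside the main measurement, in 6138 cells that met only a looser filter and were clustered on their own. A neutrophil cluster of 207 such cells, led by Il1b and Csf3r, was at 595.7 CPM of C5ar1 (539 to 657), and a cluster of 69 cells led by Ccl4, Il4 and Hdc was at 663 CPM (575 to 761). A second neutrophil cluster of 202 such cells, led by Camp and Ngp, was at 101 CPM (93.0 to 109.5). The first 2 clusters lay above the highest kept class, resident-like macrophages of RA_7d at 390 CPM. By library the Il1b cluster was at 681, 528, 543 and 510 CPM. The cluster led by Ccl4, which stayed unnamed, also held C3ar1 at 325 CPM. It had 6, 5, 41 and 17 cells by library. Only RA_4d had enough cells for a value of its own, at 766 CPM of C5ar1 (647 to 900).

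The ratio of RA to control lay past 1.5-fold one way at 4 dpf and the other way at 7 dpf in 8 cases, and the difference between the times was not tested. For Serping1 it was 0.400 (0.257 to 0.615) and 1.56 (1.18 to 2.07) in lymphatic endothelial cells, 0.537 (0.446 to 0.644) and 1.85 (1.56 to 2.21) in venular endothelial cells, and 0.573 (0.486 to 0.674) and 2.27 (1.97 to 2.63) in the blood endothelial lineage that holds them. C4b was at 0.556 (0.445 to 0.689) and 1.75 (1.41 to 2.17) in MHC class II-high macrophages. In pericytes or smooth muscle cells C4b was at 0.609 (0.310 to 1.14, from 15 and 36 UMIs), an interval that covers 1, and at 3.26 (2.42 to 4.46). C1qa was at 4.91 (3.23 to 7.60) and 0.650 (0.562 to 0.751) in tenocyte precursors, where summed macrophage markers were 62, 98, 148 and 94 CPM. C1qb was at 1.92 (1.44 to 2.55) and 0.300 (0.246 to 0.365) and C1qc at 1.56 (1.02 to 2.38) and 0.359 (0.271 to 0.470) in muscle cells, where summed macrophage markers were 34, 101, 36 and 48 CPM. The part of these markers in the C1q values was not tested. The share of all genes past the limit in opposite ways at 4 and 7 dpf was not counted, so 8 cannot be read as many or few. At 4 dpf 2.23% (blood endothelial lineage) to 10.7% (lymphatic endothelial cells) of the genes compared passed the limit in the direction of the case. At 7 dpf it was 2.39% (MHC class II-high macrophages) to 10.3% (muscle cells).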

How the results depend on the processing

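At 7 dpf, the 11 calls between RA and control kept their direction in 110 of 110 values under the alternatives, and 105 stayed past the fold. At 4 dpf 50 of 50 values kept their direction and 40 stayed past the fold, over time in control 110 of 110 and 100, and over time in RA 107 of 110 and 92. All of these counts include alternatives that only lowered the minimum of UMIs. Such alternatives leave the ratio of a called gene unchanged, so their values had to agree. The log2 ratio in mesenchymal cells was 2.36 for C3 (2.18 to 2.40 over the alternatives), 2.50 for C4b (2.17 to 2.54), 1.68 for Cfb (1.31 to 1.72) and 1.26 for Serping1 (0.99 to 1.30). Among kept cells, the class with the highest level was the same under each clustering and the stricter filter. The exception was C4b, which was highest in fibroblast precursors without integration. In cells that passed only the looser filter, C5ar1 was above every kept class, at 663 CPM in the cluster led by Ccl4 and 595.7 CPM in the Il1b neutrophils. Counts of genes moved as follows, and the cause was not tested. At 4 dpf, 1 macrophage gene was lower with clusters weighted equally, and the 5 lower endothelial genes became 1 with a pseudocount of 10 CPM, 3 with clusters weighted equally and 0 at 2-fold. At 7 dpf, the 4 higher macrophage genes became 2 with a pseudocount of 10 CPM and 2 at 2-fold, mesenchymal genes lower in RA became 1 with per-cell CPM and 4 without doublets, and endothelial ones 1 under either. From 4 to 7 dpf in control, the 2 lower macrophage genes became 1 with per-cell CPM, a pseudocount of 10 CPM, equal clusters or 2-fold, the 3 higher mesenchymal genes became 0 without doublets, and the 2 lower endothelial genes became 1 with a pseudocount of 10 CPM, at resolution 0.5 or at 2-fold. From 4 to 7 dpf in RA, the 2 higher macrophage genes became 5 with per-cell CPM, 1 with equal clusters and 1 at 2-fold. The 4 higher mesenchymal genes there became 2 with per-cell CPM, 1 with a pseudocount of 10 CPM, 1 without doublets and 0 at 2-fold, 1 was lower without doublets, and the log2 ratios of C1qa and C1qc became -0.39 and -0.087 without doublets. The 5 higher endothelial genes became 2 with a pseudocount of 10 CPM and 3 without integration, without doublets or at 2-fold, and C1qb became -0.11 without integration. Without thinning, the share of macrophages with C5ar1 was 82.7% and with C3ar1 92.3%, and of mesenchymal cells with C3 57.5% and with Serping1 88.8%. No paired analysis was possible because each group has 1 library, and no library could be left out for the same reason. Depth limits the receptors in neutrophils and osteoclasts, where a library held as few as 2 UMIs of C3ar1.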
